A study of Mus musculus with 6 samples.

Results

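The genes described here are Trp53, which encodes the transcription factor p53, its inhibitors Mdm2 and Mdm4, and 7 genes that p53 switches on (Ccng1, Trp53inp1, Btg2, Phlda3, Aen, Zmat3 and Sesn2). They were chosen by name: a probe counted where its annotation gave exactly 1 symbol and that symbol was one of the 10. By this rule 9 of the 10 genes were measured, each by 1 probe, out of 19938 genes named in this way on the arrays. Trp53 itself was not among them, and its transcript level was not analysed here. The measurements came from N2A cells, a mouse neuroblastoma line, transiently transfected with a short hairpin RNA (shRNA) against Pbcas4, the transcribed mouse pseudogene whose human counterpart is the protein-coding gene BCAS4, or with a scramble hairpin as control. Both groups received their plasmid with Lipofectamine Plus and were harvested 72 h later. Transfection was done in triplicate, and 3 RNA samples for Pbcas4 shRNA and 3 for scramble were hybridised to 6 Affymetrix Mouse Gene 1.0 ST arrays. All samples come from 1 cell line, and the share of cells that took up a construct is not given in the sources used here. The annotation names no probe for Pbcas4, so the knockdown was not checked on these arrays. The study's methods report, by quantitative PCR, a reproducible but incomplete decrease of Pbcas4 in N2A cells.

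p53 is kept low in unstressed cells by Mdm2, an E3 ubiquitin ligase that marks it for degradation, and by Mdm4, a relative of Mdm2 that covers the part of p53 that activates transcription. DNA damage and other stress release p53 from both proteins. It then raises genes for cell cycle arrest, apoptosis, DNA repair and metabolic adjustment, and it also raises Mdm2 and Ccng1, which act back on p53. The level of these transcripts is therefore commonly read as a sign of p53 activity, although many of them also answer to other factors.

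p53 binds a sequence made of paired 10-base elements, each of which reads alike on both strands. Promoters of 8 of the 10 genes were found in RefSeq (GRCm38.p6), each window running from 250 bases before the transcription start to 50 bases after it. The consensus decamer occurred without a mismatch in 4 of the 8 genes (Ccng1, Aen, Mdm2 and Trp53), against 9.55% of 27025 genes with a window. The 20-base element made of decamers back to back, with at most 3 mismatches, occurred in 4 of the 8 (Ccng1, Aen, Mdm4 and Trp53), against 7.2% of genes. With at most 2 mismatches it was found in Ccng1 alone among the 8, against 0.94% of genes. Both limits on mismatches were chosen after the matches had been seen, and a match is a description of the letters, not evidence of binding. No promoter was found for Trp53inp1 or Zmat3. Among the measured genes with a window, those shown have the lowest differences reported below (Btg2 and Phlda3) or the highest (Aen and Ccng1), together with Mdm2. The windows are given 5′ to 3′ on the gene's own strand, with the matches in capitals. They lie at chr11:40755237-40755536 on the minus strand (Ccng1), chr7:78895677-78895976 on the plus strand (Aen), chr10:117710709-117711008 on the minus strand (Mdm2), chr1:134079106-134079405 on the minus strand (Btg2) and chr1:135765835-135766134 on the plus strand (Phlda3).
Ccng1: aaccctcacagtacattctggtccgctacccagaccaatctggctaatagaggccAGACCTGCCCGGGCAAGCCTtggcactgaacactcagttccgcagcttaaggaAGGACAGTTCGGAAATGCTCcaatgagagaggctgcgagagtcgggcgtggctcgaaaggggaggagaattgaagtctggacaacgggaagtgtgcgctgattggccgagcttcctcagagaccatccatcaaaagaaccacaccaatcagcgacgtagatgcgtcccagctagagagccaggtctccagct
Aen: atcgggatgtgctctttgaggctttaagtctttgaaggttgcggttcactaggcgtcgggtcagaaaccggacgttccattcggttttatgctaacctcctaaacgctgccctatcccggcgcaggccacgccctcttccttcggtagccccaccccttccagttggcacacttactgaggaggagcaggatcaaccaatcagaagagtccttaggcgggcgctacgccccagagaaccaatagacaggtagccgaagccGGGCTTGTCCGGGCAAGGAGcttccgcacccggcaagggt
Mdm2: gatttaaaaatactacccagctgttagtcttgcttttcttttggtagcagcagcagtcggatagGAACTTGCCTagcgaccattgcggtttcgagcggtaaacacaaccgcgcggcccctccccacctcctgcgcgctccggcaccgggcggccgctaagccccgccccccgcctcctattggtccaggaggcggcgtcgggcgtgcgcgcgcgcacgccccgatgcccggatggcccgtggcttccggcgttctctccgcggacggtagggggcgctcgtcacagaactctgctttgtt
Btg2: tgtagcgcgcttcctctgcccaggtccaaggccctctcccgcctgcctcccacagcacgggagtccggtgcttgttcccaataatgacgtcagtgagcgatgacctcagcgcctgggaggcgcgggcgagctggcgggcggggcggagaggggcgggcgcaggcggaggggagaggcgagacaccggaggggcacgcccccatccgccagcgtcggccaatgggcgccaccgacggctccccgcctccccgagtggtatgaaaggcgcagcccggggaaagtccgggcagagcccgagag
Phlda3: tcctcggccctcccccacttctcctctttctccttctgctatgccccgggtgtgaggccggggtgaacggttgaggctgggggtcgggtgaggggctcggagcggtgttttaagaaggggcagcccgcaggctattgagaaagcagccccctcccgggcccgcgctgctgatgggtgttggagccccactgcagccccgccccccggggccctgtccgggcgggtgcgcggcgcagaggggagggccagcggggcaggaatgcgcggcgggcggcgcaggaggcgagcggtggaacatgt
The Ccng1 window held a 20-base match at position -195 with 1 mismatch and another at -142 with 3. In the Aen window shown the match began at position 11, after the start. Another Aen window, at chr7:78895808-78896107 for a different start, held the same match at -121. In the Mdm2 window a single decamer began at -186. The same search found no match in the windows of Btg2, Phlda3 and Sesn2. Sites outside the windows were not searched. The windows shown were picked by their differences, and a relation between matches and differences was not tested. Mdm4, with a 20-base match at -229, had a log2 difference of -0.23, and Sesn2, with none, had 0.25.

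Expression values were on the log2 scale, as deposited by the authors, so that a difference of 1 is a doubling. The 6 arrays had similar medians, between 7.75 and 7.86. Of 8 markers of neuroblastoma cells and neurons, 7 were measured, and their mean per array was 11.41 to 11.45 with Pbcas4 shRNA and 11.66 to 11.83 with scramble. Within that list Nefm, a neurofilament gene, was near the bottom of the scale, at 6.42 on average with Pbcas4 shRNA and 6.38 with scramble, while Hand2, Gata3, Tubb3 and Stmn2 were well expressed. Markers of macrophages averaged 6.76 to 6.91 with Pbcas4 shRNA and 6.80 to 6.96 with scramble, and those of fibroblasts 8.10 to 8.21 with Pbcas4 shRNA and 7.88 to 8.08 with scramble. Markers of epithelium and glia lay between 7.49 and 7.81 on every array. Genes of cell division, measured by 9 of 10 listed, averaged 12.63, 12.51 and 12.47 with Pbcas4 shRNA and 12.49, 11.74 and 11.28 with scramble. On this list scramble replicate 1 lay with the shRNA arrays rather than with the other scramble arrays. In bulk samples such as these, fewer cells of a kind and less RNA per cell cannot be told apart.

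No gene of the p53 set was called different between the constructs. The criterion was an adjusted p under 0.05 in limma together with a log2 difference over 0.5, and it was met by 0 of the 9 measured genes and by 0 of 19938 genes on the arrays (0%), where the lowest adjusted p was 0.297. The adjusted p of the 9 genes lay between 0.389 and 0.965. Means were higher with Pbcas4 shRNA for 4 of the 9 and lower for 5, and the log2 differences (shRNA minus scramble) had a median of -0.091, against 0.0031 over all genes. At an unadjusted p under 0.05 there were 3 of the 9, of which Aen was higher and Btg2 and Phlda3 were lower with Pbcas4 shRNA. The same limit was passed by 11.7% of all genes, 6.22% on the higher side and 5.46% on the lower. With the replicate number as a block the count was 5 of the 9, Ccng1 on the higher side and Trp53inp1 on the lower being added, against 14.6% of all genes. No overlap between the 3 shRNA arrays and the 3 scramble arrays was seen for 4 of the 9, with Aen and Sesn2 higher and Btg2 and Phlda3 lower. Of all genes 16.8% did not overlap, 9.13% with the shRNA arrays higher and 7.63% with them lower. For 3 of these 4 genes the gap between the groups was 0.034 or less, and only for Phlda3 was it larger (0.25).

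**Figure D1:**
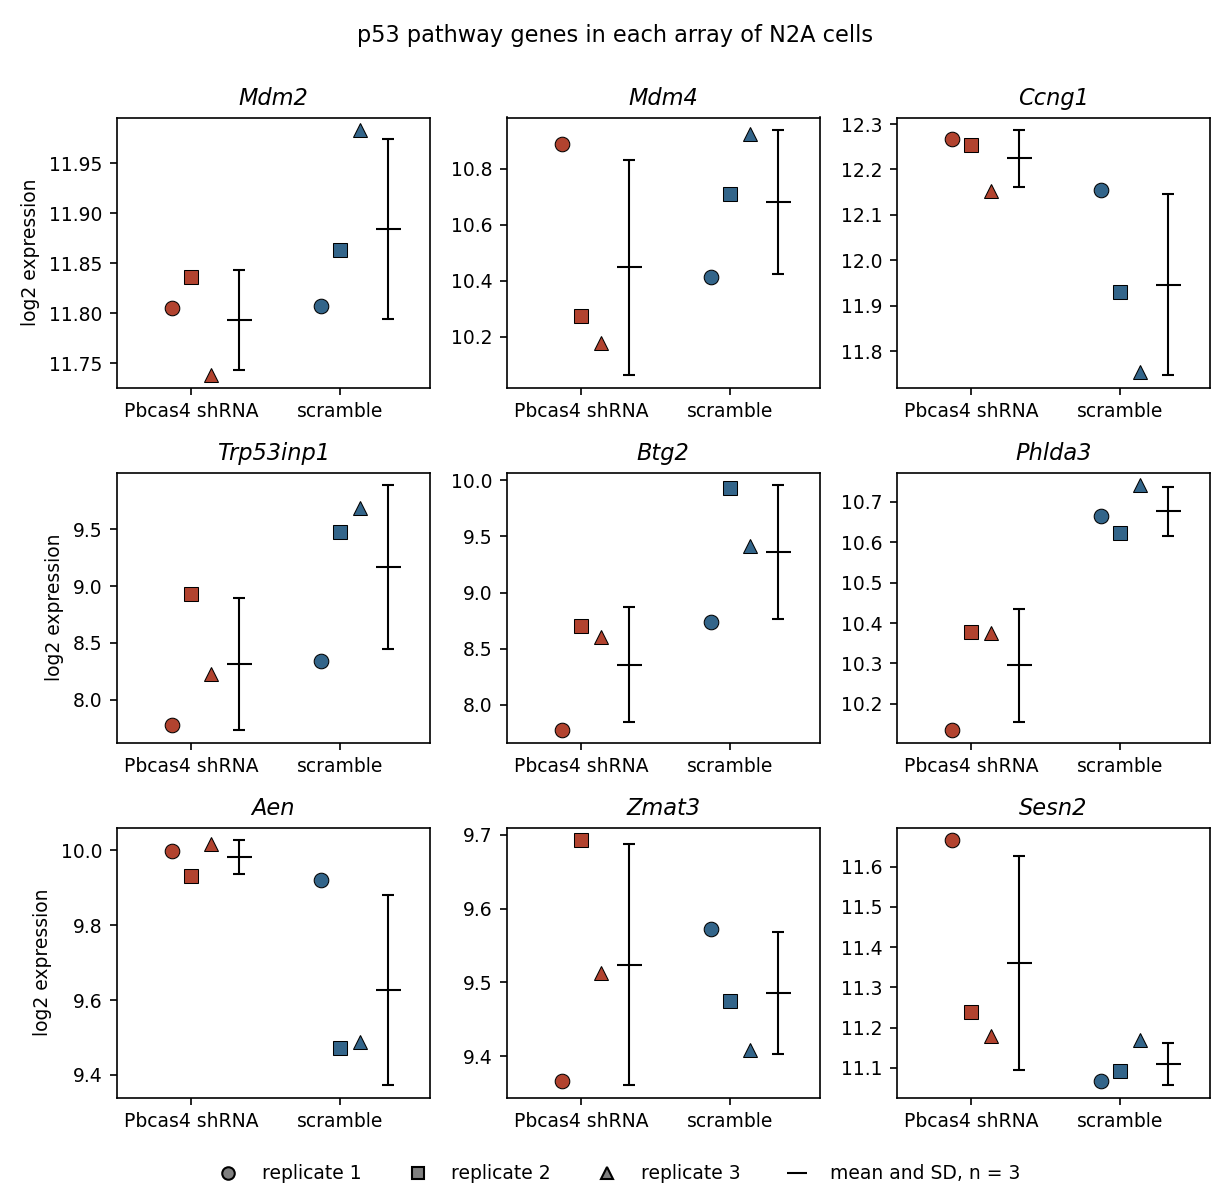
Log2 expression (vertical axis, a separate scale for each gene) of the 9 measured p53 genes on each of the 6 arrays, Pbcas4 shRNA on the left of each panel and scramble on the right, with the mean of each group as a line. Phlda3 is the gene whose groups lie furthest apart without overlap, while those of Mdm2, Mdm4 and Zmat3 overlap.

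Mdm2 differed little between the constructs. On chromosome 10 (117688875 to 117710758, GRCm38.p6), the gene gave 11.81, 11.84 and 11.74 with Pbcas4 shRNA and 11.81, 11.86 and 11.98 with scramble. The groups overlapped through scramble replicate 1 alone, while scramble replicates 2 and 3 lay above every shRNA array. The difference was -0.09 ± 0.087 (SE, n = 3 each; 95% interval -0.30 to 0.12; adjusted p = 0.83), and its interval was the narrowest of the 9 genes.

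Mdm4 varied more, with no common direction. It lies on chromosome 1 (132986105 to 133030587) and gave 10.89, 10.27 and 10.18 with Pbcas4 shRNA, against 10.41, 10.71 and 10.92 with scramble. In replicate 1 the shRNA array was higher by 0.48, whereas in replicates 2 and 3 it was lower, with differences of -0.43 and -0.75. The difference of means was -0.23 ± 0.22 (SE, n = 3 each; adjusted p = 0.825). The sign in replicate 1 was thus opposite to that in the other pairs, and without shRNA replicate 1 the groups no longer overlapped (log2 difference -0.46).

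The targets that act back on p53 lay on opposite sides of scramble, and neither passed the test. Ccng1 encodes cyclin G1, which brings the phosphatase PP2A to Mdm2. From chromosome 11 (40748552 to 40755309), it gave 12.27, 12.25 and 12.15 with Pbcas4 shRNA and 12.15, 11.93 and 11.75 with scramble. The groups overlapped only in that shRNA replicate 3 lay just under scramble replicate 1, and the difference was 0.28 ± 0.12 (SE, n = 3 each; adjusted p = 0.505).

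Trp53inp1, on chromosome 4 (11156441 to 11174379), encodes a nuclear stress protein that favours phosphorylation of p53. It gave 7.78, 8.93 and 8.23 with Pbcas4 shRNA and 8.34, 9.48 and 9.69 with scramble. Scramble replicate 1 lay below shRNA replicate 2, so the groups overlapped, although each shRNA array was below the scramble array of its own number (-0.57, -0.55 and -1.46). The difference was -0.86 ± 0.42 (SE, n = 3 each; adjusted p = 0.563), 0.552 times the scramble level.

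Btg2 had the largest difference among the 9 genes. Its product slows cell division and recruits the deadenylase that shortens mRNA tails. At chromosome 1 (134074865 to 134079155), Btg2 gave 7.77, 8.70 and 8.60 with Pbcas4 shRNA and 8.73, 9.93 and 9.42 with scramble. All shRNA arrays lay below all scramble arrays, but the highest shRNA array and the lowest scramble array were only 0.034 apart. Expression with Pbcas4 shRNA was 0.499 times that with scramble (log2 difference -1.0 ± 0.36, SE, n = 3 each; 95% interval -1.87 to -0.14; adjusted p = 0.45). With 3 arrays a group an exact permutation test cannot fall under 0.1, the value it gave for Btg2, Phlda3, Aen and Sesn2. After quantile normalization or centring on the array median Btg2 overlapped, leaving Phlda3 as the only one of the 9 genes without overlap on the lower side. On the higher side there were 2 under quantile normalization (Aen and Ccng1) and 3 under centring (Aen, Ccng1 and Sesn2). Of all genes 17.9% did not overlap under quantile normalization and 16.9% under centring.

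The apoptosis genes did not share a direction. Phlda3 encodes a pleckstrin homology domain protein that competes with the kinase Akt for membrane lipids. On chromosome 1 (135766085 to 135769134) it gave 10.13, 10.38 and 10.38 with Pbcas4 shRNA and 10.67, 10.62 and 10.74 with scramble. The groups were apart by 0.25, beside SDs of 0.14 with Pbcas4 shRNA and 0.060 with scramble. The numbered pairs differed by -0.53, -0.25 and -0.37, and groups without overlap leave no other sign for them. The difference was -0.38 ± 0.10 (SE, n = 3 each; 95% interval -0.62 to -0.14; adjusted p = 0.389).

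Aen, an exonuclease gene whose product enhances apoptosis, lay on the other side. From chromosome 7 (78895927 to 78911209), it gave 9.999, 9.93 and 10.02 with Pbcas4 shRNA and 9.92, 9.47 and 9.49 with scramble. The shRNA arrays were close together, and scramble replicate 1 lay just 0.011 below them while the other scramble arrays were clearly lower. The difference was 0.36 ± 0.14 (SE, n = 3 each; 95% interval 0.026 to 0.69; adjusted p = 0.469), a fold of 1.28.

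Zmat3, on chromosome 3 (32334792 to 32365665), encodes an RNA-binding zinc finger protein. It gave 9.37, 9.69 and 9.51 with Pbcas4 shRNA and 9.57, 9.47 and 9.41 with scramble, with the groups fully intermingled. The difference was 0.039 ± 0.11 (SE, n = 3 each; adjusted p = 0.965).

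Sesn2 encodes a sestrin that restrains mTORC1 and is induced by several kinds of stress besides p53. On chromosome 4 (132492804 to 132510456) it gave 11.67, 11.24 and 11.18 with Pbcas4 shRNA and 11.07, 11.09 and 11.17 with scramble. Most of the difference of 0.25 ± 0.14 (SE, n = 3 each; adjusted p = 0.626) came from shRNA replicate 1, since shRNA replicate 3 was only 0.010 above the highest scramble array. Without both arrays numbered 1 the difference was 0.078.

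**Figure D2:**
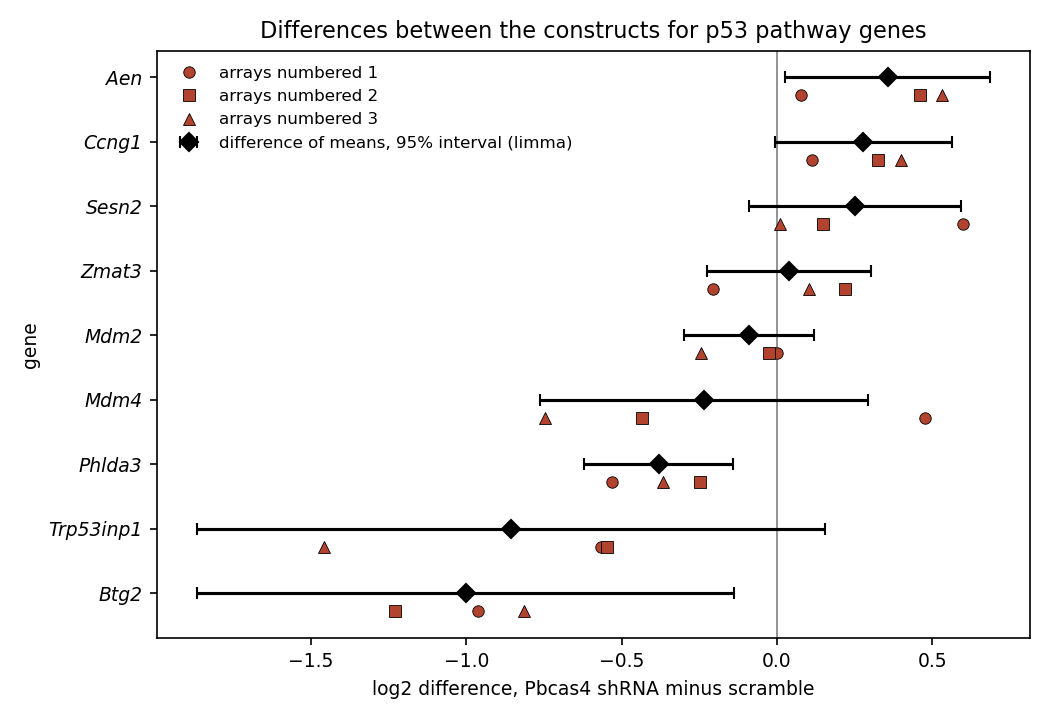
Difference in log2 expression (horizontal axis), Pbcas4 shRNA minus scramble, for the 9 measured p53 genes, as the difference of means with its 95% interval from limma (diamonds) and for each pair of arrays with the same replicate number (red symbols). The intervals of Btg2, Phlda3 and Aen exclude 0, and that of Mdm2 is the narrowest.

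Scramble replicate 1 bore on most of these values. For 7 of the 9 genes (Mdm2, Mdm4, Ccng1, Trp53inp1, Btg2, Aen and Zmat3) it was nearer the shRNA mean than the mean of the other scramble arrays, and for Phlda3 and Sesn2 it was not. The same count was not made over all genes, so it shows nothing particular to the p53 genes. Without it, 5 of the 9 genes passed an unadjusted p under 0.05, against 19.4% of all genes, and 7 did not overlap, against 40.0%. Btg2 then differed by -1.32 (adjusted p = 0.120), Trp53inp1 by -1.27 (adjusted p = 0.131) and Aen by 0.50 (adjusted p = 0.0688). None was called at the criterion used here. With both arrays numbered 1 left out, an alternative added after the data had been seen, all 9 genes were without overlap, as were 55.5% of all genes. The genes of cell division moved in the same way on scramble replicate 1, and their part in the p53 values was not tested.

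**Figure D3:**
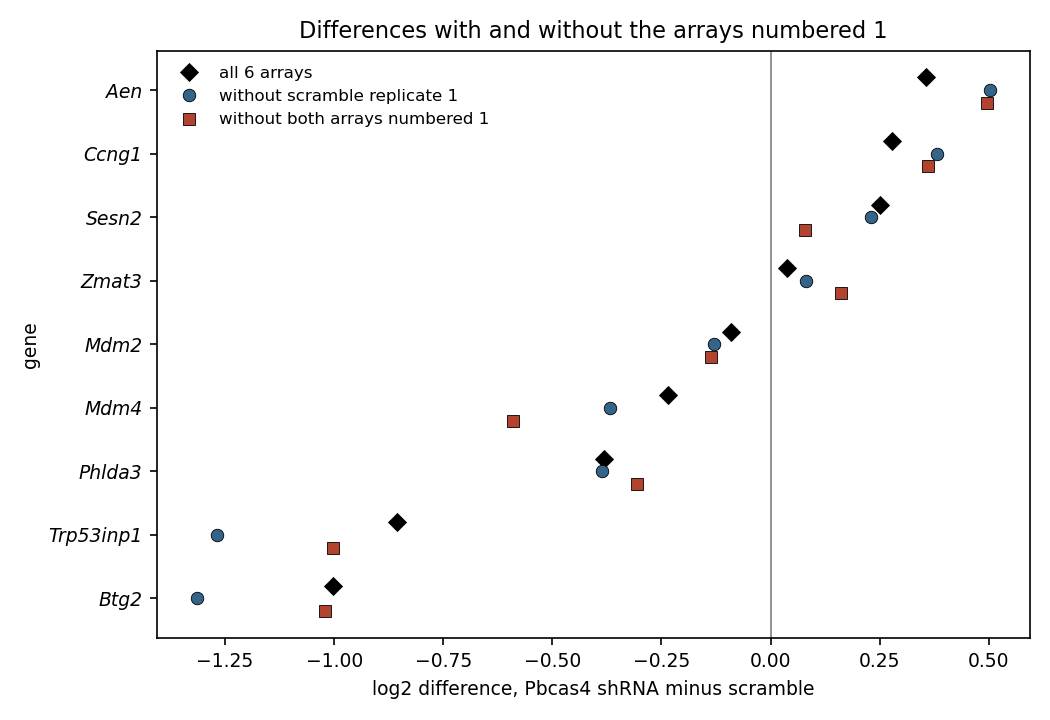
Difference in log2 expression (horizontal axis), Pbcas4 shRNA minus scramble, for the 9 measured p53 genes with all 6 arrays, without scramble replicate 1 and without both arrays numbered 1. Btg2 was at -1.0 with all arrays, -1.32 without scramble replicate 1 and -1.02 without both arrays numbered 1. Mdm4 was at -0.59 without both arrays numbered 1.

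Other genes of the pathway were taken from a list of 83, of which 78 were measured. Cdkn1a, which encodes the cell cycle inhibitor p21 and is the most used p53 target, lies on a probe with several symbols and was not analysed here. Bax, Gls2, Gdf15 and Trp53cor1 are named by no probe of the annotation and were not analysed here either. None of the 78 was called. At an unadjusted p under 0.05 there were 14 (17.9%), 11 higher and 3 lower with Pbcas4 shRNA, against 11.7% of all genes, and 16 did not overlap (20.5%), 14 higher and 2 lower, against 16.8%. Their median log2 difference was 0.064.

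**Figure D4:**
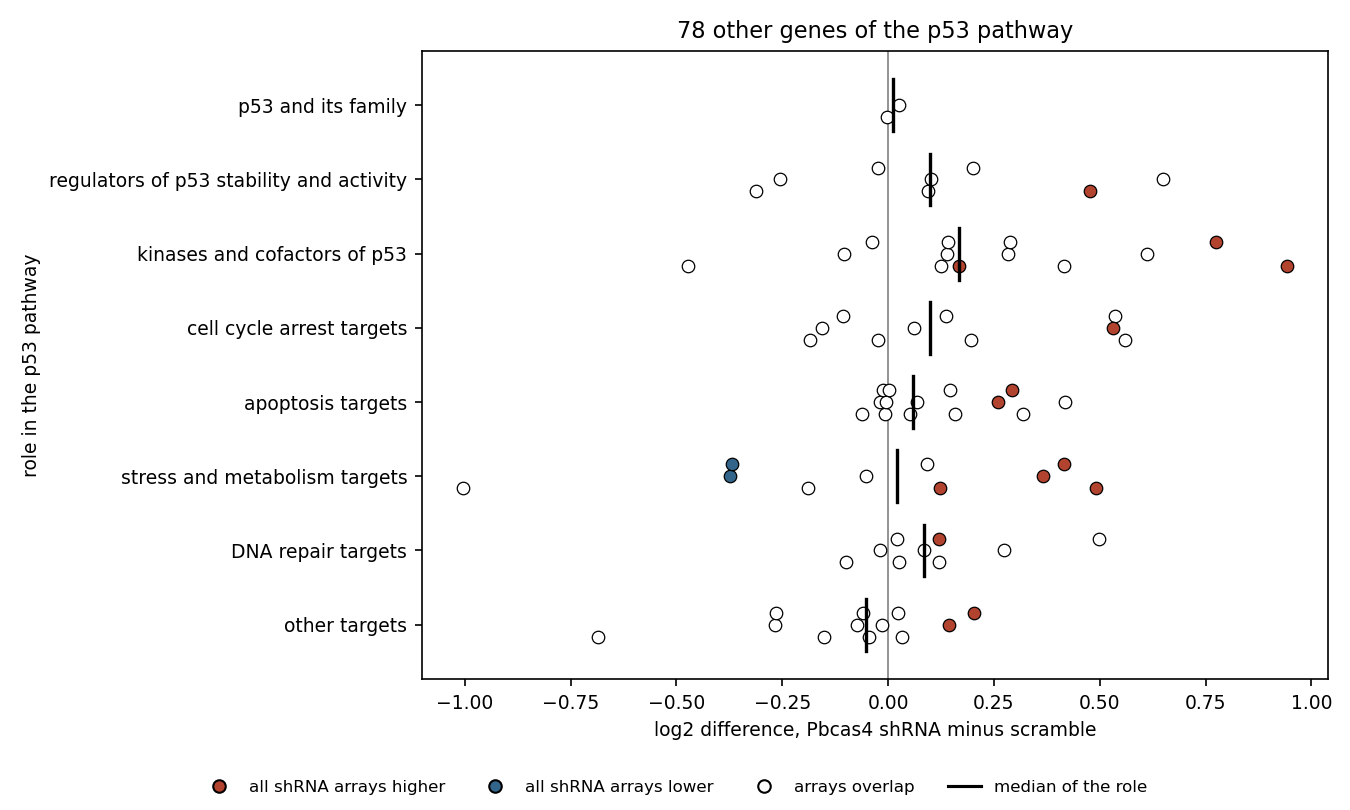
Difference in log2 expression (horizontal axis), Pbcas4 shRNA minus scramble, for 78 further genes of the p53 pathway by role. Each point is a gene, filled red where all shRNA arrays were higher than all scramble arrays and blue where all were lower, and the vertical line is the median of the role, which was 0.17 for kinases and cofactors and -0.052 for other targets.

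Among the relatives, regulators, kinases and cofactors of p53, 23 of 23 listed genes were measured. An unadjusted p under 0.05 was reached by 5 (21.7%), all of them higher with Pbcas4 shRNA. Of all genes 11.7% reached it, 6.22% on the higher side. No overlap was seen for 4 of the 23 (17.4%), all higher, against 16.8% of all genes and 9.13% on the higher side. The relatives of p53 did not stand out, Trp63 averaging 7.75 with Pbcas4 shRNA and 7.73 with scramble and Trp73 7.49 and 7.50. Usp10, a deubiquitinase that stabilises p53 in human cells, gave 12.83, 12.89 and 12.98 with Pbcas4 shRNA and 12.60, 12.30 and 12.37 with scramble (log2 difference 0.48, adjusted p = 0.363). Cdkn2a, whose Arf product holds Mdm2 in check, gave 8.99, 9.36 and 9.25 with Pbcas4 shRNA and 9.28, 9.52 and 9.74 with scramble (log2 difference -0.31, adjusted p = 0.560). The Usp10 groups were apart and the Cdkn2a groups overlapped.

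The widest differences among these 23 genes were those of the checkpoint kinases that phosphorylate p53 after DNA damage. Chek1 gave 11.38, 11.23 and 11.30 with Pbcas4 shRNA and 11.15, 10.12 and 9.81 with scramble (log2 difference 0.94, adjusted p = 0.433). Chek2 gave 9.83, 10.11 and 10.02 with Pbcas4 shRNA and 9.61, 9.05 and 8.98 with scramble (log2 difference 0.78, adjusted p = 0.363). In both, all shRNA arrays were higher, and scramble replicate 1 was the scramble array nearest to them, as it was for the genes of cell division, whose part in these values was not tested. Atr, the kinase that activates Chek1, averaged 10.29 with Pbcas4 shRNA and 9.88 with scramble (adjusted p = 0.483). Sirt1, a deacetylase of p53, averaged 11.21 with Pbcas4 shRNA and 10.56 with scramble (adjusted p = 0.483). The groups overlapped for both genes. For Atr scramble replicate 1 (10.24) lay above shRNA replicate 3 (10.16), and for Sirt1 it (11.15) lay above shRNA replicate 2 (11.03).

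Among the further targets 55 of 60 were measured and 9 (16.4%) passed an unadjusted p under 0.05, 6 of them higher and 3 lower, against 11.7% of all genes. Their median log2 difference was 0.026. Those of stress and metabolism went both ways, with means higher for 5 and lower for 5 of 10 measured. At an unadjusted p under 0.05 there were 3 higher and 3 lower. Tigar, which lowers glycolytic flux, gave 10.84, 10.95 and 10.74 with Pbcas4 shRNA and 10.53, 10.41 and 10.48 with scramble (log2 difference 0.37, adjusted p = 0.379). Gpx1, a glutathione peroxidase, gave 11.47, 11.66 and 11.83 with Pbcas4 shRNA and 11.27, 11.22 and 10.9996 with scramble (log2 difference 0.49, adjusted p = 0.383). In these genes and in Slc19a2, a thiamine transporter gene (log2 difference 0.42), all shRNA arrays were higher. Ak1, an adenylate kinase, gave 11.36, 11.25 and 11.23 with Pbcas4 shRNA and 11.77, 11.66 and 11.52 with scramble (log2 difference -0.37, adjusted p = 0.390). Ephx1, an epoxide hydrolase, gave 10.33, 11.30 and 10.77 with Pbcas4 shRNA and 11.24, 12.11 and 12.06 with scramble (log2 difference -1.0, adjusted p = 0.421). Ak1 and Cpt1c (log2 difference -0.37), a brain form of carnitine palmitoyltransferase, were without overlap on the lower side, while the Ephx1 groups overlapped because scramble replicate 1 lay below shRNA replicate 2.

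The arrest and apoptosis genes of the list passed that limit about as often as all genes did (11.7%). Of 10 measured arrest genes only Ckap2, a gene of the mitotic spindle, passed an unadjusted p under 0.05 (11.61 on average with Pbcas4 shRNA, 11.08 with scramble, adjusted p = 0.469). Of 14 measured apoptosis genes Ei24 and Siva1 did so, with log2 differences of 0.29 and 0.26, and neither passed after adjustment. None of 9 DNA repair genes and none of 12 other targets did so. Across the roles, 5 further genes were higher on all shRNA arrays without passing that limit. They were the acetyltransferase gene Kat5 (0.17), the ribosomal protein gene Rps27l (0.12) and the damage sensor gene Xpc (0.12). The others were the phosphatase gene Ptpn14 (0.14) and the matrix protein gene Thbs1 (0.20). They belong to the 14 of 78 genes without overlap on the higher side, where 9.13% of all genes lay.

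As a description of likeness, genes were ranked by Pearson correlation with Mdm2 over the 6 arrays. The closest were Sarm1 (r = 0.996), Acvr2a (r = 0.994) and Kcnk3 (r = 0.991), none of which belongs to the p53 list. These correlations rest on 6 arrays, and the closest among 19938 genes are high by selection.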

How the data were processed

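Gene expression was measured in N2A cells on 3 arrays for Pbcas4 shRNA and 3 for scramble, from 200 ng of RNA each. The log2 values were used as deposited by the authors, already summarised per probe. How they were summarised, and whether they were scaled between arrays, is not given in the sources used here. Probes (35556) were named from the platform annotation: 21789 had 1 symbol, 1621 several and 12146 none, and only the first kind was used for genes, with the probe of highest mean where a gene had several. All probes were fitted with limma 3.58.1 in R 4.3.3 (lmFit, eBayes, two-sided) and p-values were adjusted over all of them by Benjamini-Hochberg. The size criterion of the study's methods was read as a log2 difference over 0.5. Exact permutation tests were two-sided. Promoters were searched in Python 3.11.15, and figures drawn with matplotlib 3.10.9. The fit was tested on simulated data.

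The methods state transfection in triplicate, but no source used here says whether the wells were independent cultures, so p-values measure the spread between these samples, which may be technical, and their number limits the precision. After removal of group means, arrays of the same replicate number correlated at 0.291, 0.137 and 0.103, while shRNA 2 correlated with scramble 3 at 0.199. Every same-number correlation was over 0.1, but 0.199 is higher than the value of 2 of the 3 pairs, so a pairing by number is uncertain. Values for single genes come from the fit without a block unless another fit is named, and a fit with the number as a block was also made. Further fits used array weights, quantile normalization, median centring, a trended and robust variance, bright probes only, averaged probes per gene, other size criteria, or 1 array fewer. The genes of the p53 set, the wider list and the tests were chosen with earlier results of these data known; 1 further gene, for which no value was read, is not reported here. Genes of the wider list were named where they passed an unadjusted p under 0.05, or did not overlap, and Cdkn1a, Bax, Cdkn2a, Trp63 and Trp73 whatever their values.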

Additional observations from a re-analysis of the deposited data

How the results depend on the processing

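No p53 gene was called under any alternative except array weights, which gave scramble replicate 1 the least weight (0.353) and shRNA replicate 3 the most (5.32). There 2 of the 9 genes were called, Btg2 (log2 difference -1.14, adjusted p = 0.0319) and Trp53inp1 (-1.16, adjusted p = 0.0307), against 6.62% of all genes; Aen (0.49, adjusted p = 0.0212) and Phlda3 (-0.30, adjusted p = 0.0418) passed the p but not the size. Of the wider list 11 were called, 10 of them higher with Pbcas4 shRNA. At an unadjusted p under 0.05, array weights gave 6 p53 genes and 36 of the wider list (32.6% of all genes), the replicate block 5 and 21 (14.6%), and leaving out both arrays numbered 1 gave 6 and 29 (21.2%), against 11.7% of all genes with no such change. Leaving out each array in turn gave 1 to 5 p53 genes, 5 without scramble replicate 1 and 1 (Phlda3) without scramble replicate 2 or scramble replicate 3, and 5 to 28 of the wider list, while the share of all genes ran from 5.33% to 19.4%. Counts without overlap were 4 to 7 and 17 to 45 when each array was left out (21.0% to 40.0% of all genes), and 9 and 53 without both arrays numbered 1 (55.5%), so that the counts grew together with the share over all genes.

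Directions of the p53 genes held under every alternative except for Zmat3, which ran from -0.046 without shRNA replicate 2 to 0.12 without shRNA replicate 1 when each array was left out, and was 0.16 without both arrays numbered 1. Trp63 was -0.038 with array weights, -0.011 without both arrays numbered 1 and -0.035 to 0.12 when each array was left out. Trp73 was 0.012 after quantile normalization, 0.023 after centring and -0.080 to 0.040 when each array was left out. The replicate block moved no call, but it changed p-values in both directions. The unadjusted limma p of Btg2 was 0.00031 with the block and 0.0292 without it. For Phlda3 it was 0.0138 with the block and 0.00759 without it. The causes were not tested, and the 3 arrays a group limit the precision. Detection above background was not analysed here, so no probe was set apart as dim except by its mean.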
